A study of Mus musculus with 8 samples.

Results

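The genes described here are the ribosomal protein genes and the host genes of small nucleolar RNAs (snoRNAs), read in splenic B cells with and without Irf4. They were chosen by symbol: Rpl or Rps followed by a digit, Rplp0 to Rplp2, Rpsa, Snhg followed by a number, Gas5, Zfas1 and Epb41l4aos, without pseudogenes and without the Rps6k kinases. This gave 65 genes of the 18194 that have a probe set annotated to 1 gene alone, namely 48 ribosomal protein genes, 16 snoRNA host genes and Rps19bp1, whose symbol fits although it codes for a binding partner of a ribosomal protein. Rps4l was left out because RefSeq lists it as a transcribed pseudogene. Where a gene had several probe sets, the one with the highest mean signal over the 8 arrays was used. That choice drew on signal levels but not on the difference between genotypes.

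Ribosomal proteins assemble with ribosomal RNA into the large and small subunits of the ribosome, and their mRNAs begin with a run of pyrimidines, the 5′ terminal oligopyrimidine (TOP) motif, through which mTORC1 signalling controls their translation. The snoRNA hosts are transcribed from promoters of the same type, but their introns carry snoRNAs, which guide chemical modification or processing of ribosomal RNA. Many of the spliced host transcripts code for no conserved protein and are degraded by nonsense-mediated decay once ribosomes have read their short open reading frames.

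The mice were C57BL/6 and 12 weeks old, either Irf4 null (irf4-/-) or wild-type littermates (irf4+/+), and mature B cells were obtained from spleen by removing other cells with magnetic beads. Irf4 encodes a transcription factor of lymphocytes; the labels describe the null allele no further and name no sex. RNA from each sample was hybridised to 1 Affymetrix array, 4 for each genotype, and the values are MAS5 signals, a linear measure of brightness for each probe set. The labels number the samples 1 to 4 within a genotype without saying that each came from a different animal, so a p-value here weighs a difference only against the variation from sample to sample, part or all of which could be technical.

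The arrays were compared after the deposited scaling, with a trimmed mean of 500.003 on each and correlations of 0.96 to 0.982 between arrays. The brighter Irf4 probe set had signals of 1720 to 2341 on the wild-type arrays and 245 to 315 on the null arrays, a log2 difference of -2.76 ± 0.12 (SE, n = 4 and 4, limma adjusted p = 4.61e-06). Of 8 B cell markers, 7 were tested and none passed the threshold (limma, 1 at an unadjusted p under 0.05). Their signals summed to 73042 to 87856 per wild-type array and 72489 to 81010 per null array. Of 41 markers of T cells, NK cells, neutrophils, monocytes, erythroid cells and platelets, 35 had a probe set, 33 were tested, 29 had a positive difference and 2 passed, the NK and T cell granule gene Prf1 (log2 difference 1.33, limma adjusted p = 0.0122) and the platelet gene Ppbp (0.81, limma adjusted p = 0.0415). By limma 11 of the 33 had an unadjusted p under 0.05, and their median log2 difference was 0.81. Of all genes 20.4% had such a p and 4.37% were called. Medians were 1.34 for T cells, 1.33 for NK cells and 1.32 for neutrophils. They were 0.14 for monocytes and macrophages, 0.11 for erythroid cells and 0.50 for platelets. With the term for Xist described below, these medians were 0.96, 0.69, 0.20, -0.55, -0.19 and 0.48, in the same order. Summed neutrophil signal was 52918 on wild-type array 2 and 5563 to 7122 on the other wild-type arrays. The summed signal of the 35 markers ran from 22905 to 97289 in wild type and from 34771 to 115567 in Irf4 null, and no marker was at 0 on any array. Xist, the RNA of the inactive X chromosome, was bright (17119 to 19652) on all wild-type arrays except array 2 and on null array 1. It was dim (49.2 to 94.8) on the other arrays. Xist-high arrays are therefore mostly wild type and Xist-low arrays mostly null, and results below are also given with a term for this split. Signals were also summed over Xist and the Y-linked genes Eif2s3y, Ddx3y, Kdm5d and Uty, not all of which had a probe set. The sum was 17146 to 19708 on Xist-high arrays and 4863 to 7027 on Xist-low arrays. On the Xist-low arrays nearly all of it was Y-linked signal, so the split follows Y-linked RNA as well.

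The promoters of the hosts that rose and of 3 ribosomal protein genes are shown because the TOP motif is read at this position. Each sequence is from RefSeq (GRCm38.p6), 5′ to 3′ on the strand of the gene, with 30 bases before the annotated start and 20 bases from it. Capitals mark CTTTC, the core pyrimidine run searched for. Snhg6 had no entry in the promoter table. Rps6 and Rpl12 are ribosomal protein genes whose differences, described further on, did not pass, and Rpl35 holds CTTTC more than once. Rpl14, with the largest difference among the ribosomal protein genes, has no CTTTC in its window and is not printed. Its annotated start is, however, a C followed by a run of pyrimidines. The printed ribosomal protein genes therefore do not stand for the group.
Zfas1, chr2:167062904-167062953, plus strand: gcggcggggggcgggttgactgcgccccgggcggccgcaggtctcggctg
Snhg3, chr4:132353667-132353716, minus strand: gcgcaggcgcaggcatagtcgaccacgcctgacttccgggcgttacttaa
Snhg5, chr9:88522878-88522927, minus strand: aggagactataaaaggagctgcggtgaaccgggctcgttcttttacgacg
Gas5, first listed start, chr1:161034571-161034620, plus strand: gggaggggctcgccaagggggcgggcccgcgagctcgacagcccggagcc
Gas5, other listed start, chr1:161035136-161035185, plus strand: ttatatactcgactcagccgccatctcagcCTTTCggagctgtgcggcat
Snhg12, chr4:132308648-132308697, plus strand: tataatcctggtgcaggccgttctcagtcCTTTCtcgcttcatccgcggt
Snhg1, chr19:8723457-8723506, plus strand: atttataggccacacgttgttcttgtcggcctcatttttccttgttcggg
Rps6, chr4:86857348-86857397, minus strand: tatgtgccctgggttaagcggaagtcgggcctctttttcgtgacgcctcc
Rpl12, chr2:32961682-32961731, plus strand: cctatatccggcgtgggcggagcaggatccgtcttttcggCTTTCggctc
Rpl35, chr2:39005112-39005161, minus strand: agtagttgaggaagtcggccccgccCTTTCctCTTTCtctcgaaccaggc
In the printed sequences CTTTC stands in Snhg12 and in 1 of the Gas5 starts, but not in Zfas1, Snhg3, Snhg5 or Snhg1. The Rps6 window holds a run of pyrimidines that these letters do not match. Of the 27025 genes in the promoter table, 8.0% had CTTTC in this window on the gene's strand and 6.96% on the other strand. Of the 48 ribosomal protein genes 43 were matched by symbol, and CTTTC was present in 12 of them (27.9%) on the gene's strand and in 3 (6.98%) on the other. Of the 16 hosts 14 were matched, with CTTTC in 3 (21.4%) on the gene's strand and in 0 on the other. A C at the annotated start followed by 4 pyrimidines was found in 3.01% of all genes, in 8 ribosomal protein genes (18.6%) and in 3 hosts (21.4%). Annotated starts can lie off the true start by some bases, so a window without the letters says nothing about the motif in the cell.

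In Irf4 null B cells 7 of the 14 snoRNA host genes that could be tested were higher, none was lower, and no ribosomal protein gene passed in either direction. The threshold was an adjusted p of 0.05 from limma, fitted to all 27022 probe sets above a floor on signal. Over all 11796 genes tested at 1 probe set each, 4.37% were called, 2.67% higher and 1.7% lower. The 7 were Zfas1, Snhg3, Snhg5, Gas5, Snhg12, Snhg6 and Snhg1, and in each of them all 4 null arrays lay above all 4 wild-type arrays, which held for 7.13% of genes. Because the samples are bulk RNA, a higher share of cells that carry an RNA and more of that RNA in each cell cannot be told apart.

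**Figure D1:**
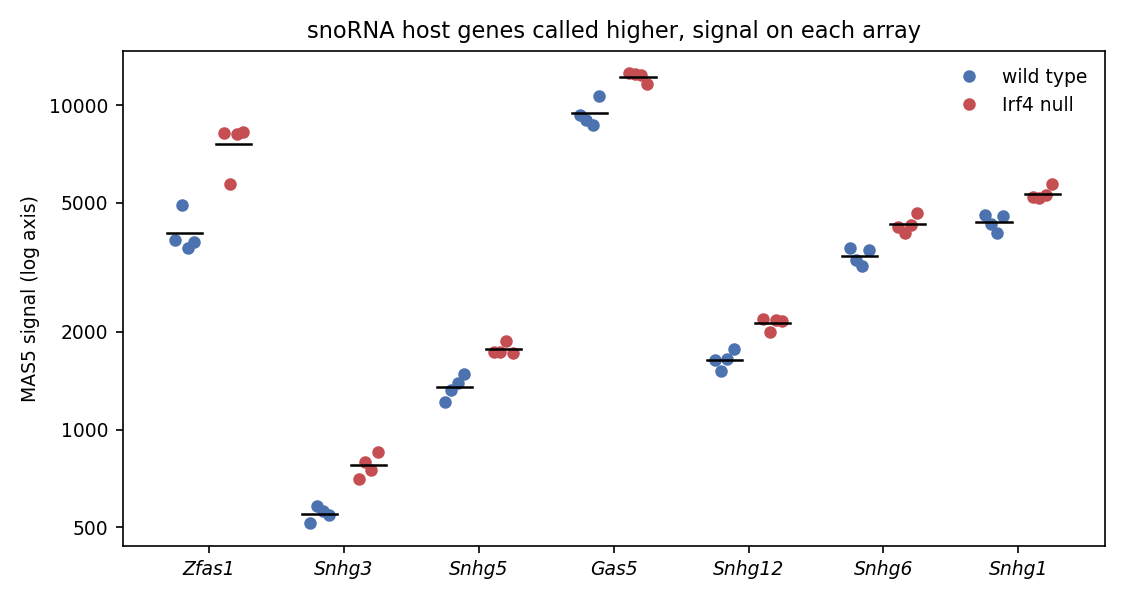
MAS5 signal on a log axis for the 7 snoRNA host genes that were higher in Irf4 null B cells. Each point is 1 array (4 wild type in blue, 4 Irf4 null in red) and each bar is the mean of a genotype; for every gene the red points lie above the blue ones, and for Zfas1 the lowest null array (5706) is set apart from the other null arrays (8122 to 8262).

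Zfas1, a non-coding RNA named for its place antisense to the start of Znfx1, had the largest difference of all members. Its signals were 3836, 4911, 3626 and 3785 on wild-type arrays 1 to 4 and 8176, 5706, 8122 and 8262 on null arrays 1 to 4. The groups did not overlap, although wild-type array 2 was the highest of its genotype and null array 2 the lowest. The log2 difference was 0.90 ± 0.13 (SE), a 1.86-fold higher signal (limma adjusted p = 0.00424). RefSeq places 3 snoRNA genes inside Zfas1, among them Snord12.

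Gas5, first described as a transcript that accumulates in growth-arrested cells and a known substrate of nonsense-mediated decay, also rose. Its signals were 9329, 9002, 8712 and 10660 on the wild-type arrays against 12538, 12456, 12370 and 11606 on the null arrays, so the lowest null array stood above the highest wild-type array. The difference was 0.38 ± 0.07 on the log2 scale, or 1.30-fold (limma adjusted p = 0.0182). Gas5 spans 8 snoRNA genes, and it has 3 further probe sets, with log2 differences of 0.35 (limma adjusted p = 0.0398), 0.40 (0.00638) and 0.12 (0.541). The chosen Gas5 probe set is of a kind that can bind related sequences; the one at 0.40 is not.

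Snhg1, the host of Snord22 and of box C/D snoRNAs in most of its introns, had signals of 4570, 4289, 4045 and 4550 on the wild-type arrays against 5210, 5180, 5271 and 5697 on the null arrays. The lowest null array again exceeded the highest wild-type array. Its difference was 0.29 ± 0.07 (limma adjusted p = 0.0437), the smallest of the 7. The gene has 4 further probe sets, with differences of 0.28 (limma adjusted p = 0.0489), 0.22 (0.115), 0.49 (0.0119) and 0.48 (0.0152), so 4 of its 5 passed.

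Snhg3, which carries Snora73a and Snora73b, and Snhg12, which carries Snora16a, Snora44, Snora61 and Snord99, both lie on chromosome 4, on opposite strands. Snhg3 signals were 515, 583, 560 and 544 on the wild-type arrays against 705, 795, 750 and 852 on the null arrays (log2 difference 0.48 ± 0.09, limma adjusted p = 0.0195). Snhg12 signals were 1640, 1518, 1647 and 1765 on the wild-type arrays against 2199, 1992, 2178 and 2158 on the null arrays (0.37 ± 0.08, limma adjusted p = 0.0224). Both genes have 1 probe set, and in both the lowest null array stood above the highest wild-type array.

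Snhg5 and Snhg6 complete the hosts that rose. Snhg5 signals were 1215, 1327, 1388 and 1481 on the wild-type arrays against 1729, 1738, 1881 and 1716 on the null arrays (log2 difference 0.38 ± 0.08, limma adjusted p = 0.0297). The 2 dimmer probe sets of Snhg5, with mean signals of 59.8 and 49.9, had differences of 0.20 and -0.02 and did not pass. Snhg6, the host of Snord87, had signals of 3616, 3338, 3196 and 3584 on the wild-type arrays against 4207, 4029, 4272 and 4642 on the null arrays (0.32 ± 0.07, limma adjusted p = 0.0395). Over the hosts, 12 probe sets other than the chosen ones were tested, and 5 of them were called higher and none lower (6 at an unadjusted p under 0.05); of all 27022 probe sets 3.52% were called, 2.01% higher and 1.51% lower.

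The other 7 tested hosts did not pass. Snhg18, the host of Snord123, had the largest difference among them (0.40 ± 0.20, limma adjusted p = 0.345), with signals of 88.9 to 165 in wild type and 138 to 199 in Irf4 null that overlapped. Snhg4 had a difference of 0.19 (limma adjusted p = 0.356), Snhg8, the host of Snora24, one of 0.11 (0.628), Snhg16, the host of Snord1a to Snord1c, one of 0.11 (0.756) and Snhg10 one of 0.10 (0.678). Snhg7, the host of Snora17 and Snora43, was at 0.03 (limma adjusted p = 0.95) and Snhg17 at -0.16 ± 0.14 (0.627), the only negative value among the hosts. Snhg11, with signals of 6.64 to 49.8, and Snhg14, with signals of 1.18 to 12.5, were too dim to test. Snhg14 is a long neuronal transcript of the imprinted Prader-Willi and Angelman region, with 206 snoRNA genes in its span. Epb41l4aos had no single-gene probe set here.

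The ribosomal protein genes lay close to 0. Of 48 genes 46 were tested, 32 had a positive difference and 14 a negative one, with a median of 0.036, a range of -0.30 to 0.35 and a median standard error of 0.080. All tested genes had a median of 0.02 and 6437 of the 11796 were positive, with the middle 50% between -0.12 and 0.19. By limma 5 ribosomal protein genes had an unadjusted p under 0.05, against 20.4% of all genes. The host median was 0.305, which is 0.27 above the protein median; members were chosen with results known, so no p is given for that gap.

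Among the 20 genes of the large subunit the median was 0.033, from Rpl8 at -0.09 (limma adjusted p = 0.637) to Rpl14 at 0.35 ± 0.12 (0.155). Rpl14 had signals of 656, 685, 487 and 626 on the wild-type arrays against 830, 825, 708 and 756 on the null arrays. The groups did not overlap. Rpl12, which binds at the base of the ribosomal stalk, had signals of 1634, 1329, 1469 and 1538 on the wild-type arrays against 2024, 1602, 1766 and 2076 on the null arrays, which overlapped (0.32 ± 0.10, limma adjusted p = 0.133).

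Among the 20 tested genes of the small subunit the median was 0.036, from Rps24 at -0.05 (limma adjusted p = 0.814) to Rps6 at 0.30 ± 0.09 (0.109). Rps6 is the substrate of the S6 kinases downstream of mTORC1. Its signals were 2737, 2684, 2277 and 2705 on the wild-type arrays against 3561, 3341, 2858 and 3080 on the null arrays, without overlap. Rps16 was not tested, since its probe set had signals of 0.668 to 3.96, and Rpl3l, a paralogue of striated muscle, was not tested either, with signals of 4.89 to 16.1. The stalk proteins Rplp0 and Rplp2 were at 0.05 and -0.0014 (limma adjusted p = 0.725 and 0.995).

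Paralogue pairs could be read side by side in 4 cases. Rpl22, a large subunit protein needed for alpha-beta T cell development, had a difference of -0.03 (limma adjusted p = 0.908) while its paralogue Rpl22l1 had 0.29 ± 0.09 (0.11). Rpl22l1 signals were 12949, 13295, 12626 and 14862 on the wild-type arrays against 15682, 14994, 19210 and 15839 on the null arrays, with no overlap. Rps27l, a target of p53, had a difference of 0.20 ± 0.08 (limma adjusted p = 0.248) and Rps27 one of 0.04 ± 0.27 (0.963). Rpl7 and Rpl7l1 were at 0.04 and 0.02 (limma adjusted p = 0.818 and 0.96). The other probe sets were at 0.02 and 0.03 for Rpl7 and at 0.15 and 0.23 for Rpl7l1. They were at 0.10 and 0.34 for Rpl22 and at 0.18 and 0.28 for Rps27l. None of these passed, and the reading of a pair depends on the probe set used. Rpl39, which is X-linked, had 0.27 ± 0.41 (limma adjusted p = 0.802) and its testis-enriched paralogue Rpl39l -0.30 ± 0.29 (0.666), both from dim and scattered signals. Differences between members of a pair were not tested. The X-linked Rps4x was at -0.02 (limma adjusted p = 0.921), and Rps19bp1 at -0.06 (0.816).

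Members with the highest signals were Rpl13a, Rps20 and Rps29, at -0.05, 0.02 and -0.04, and none of the 3 passed by limma, also without adjustment. In all, 10 members had every null array above every wild-type array, against 7.13% of genes. They were the 7 hosts that passed, of 14 tested, with Rpl14, Rps6 and Rpl22l1. Those 3 of the 46 tested ribosomal protein genes are a share no higher than that of all genes. Every null array lay below every wild-type array for 0 members, against 5.71% of genes.

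**Figure D2:**
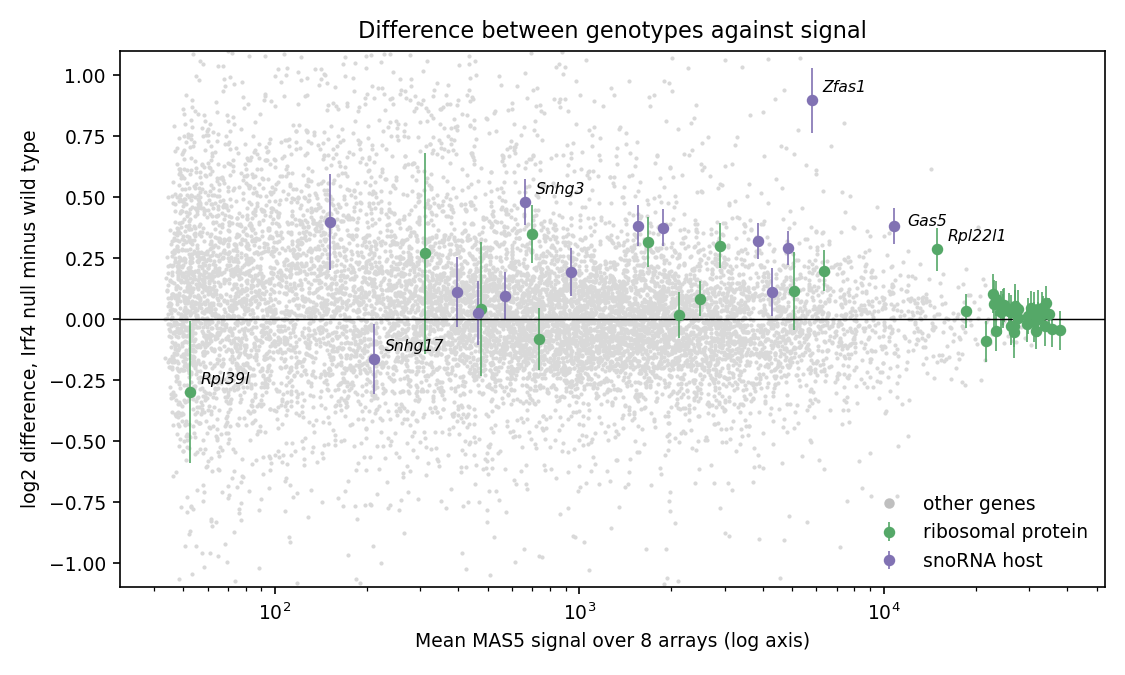
Log2 difference (Irf4 null minus wild type) against mean MAS5 signal over 8 arrays on a log axis, for ribosomal protein genes (green), snoRNA hosts (purple), each with its standard error, and the other tested genes (grey). The vertical axis ends at 1.1 in each direction, which leaves out 242 of the 11796 genes; the 7 hosts that passed have mean signals of 663 to 10834, and most ribosomal protein genes lie to the right of them, at the upper end of the range, and near 0.

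The hosts and the ribosomal protein genes sat at different places in the signal range of the array. Signals of different probe sets do not rank RNA levels, but they bear on how a difference can be read. The tested hosts had mean signals of 151 to 10834, whereas 35 of the 46 ribosomal protein genes lay above that, at 14932 to 37890. Of the 222 genes above the host range, 0 were called higher by limma (0.0%) and 2 lower (0.901% called in all), with 29 at an unadjusted p under 0.05, and the middle 50% of their differences lay between -0.08 and 0.06. Of the 8792 genes within the host range 5.39% were called and 3.23% were called higher, with the middle 50% of differences between -0.12 and 0.16.

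The 10 ribosomal protein genes within the host range had a median difference of 0.157, 9 of them positive, and 4 at an unadjusted p under 0.05 (Rpl14, Rpl12, Rps6 and Rps27l). The 35 above it had a median of 0.028. Against those 10 genes the host median was higher by 0.15, in place of 0.27 against all of them. This split by signal was chosen after the values were seen, and how much of the gap between hosts and protein genes goes with signal was not tested.

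**Figure D3:**
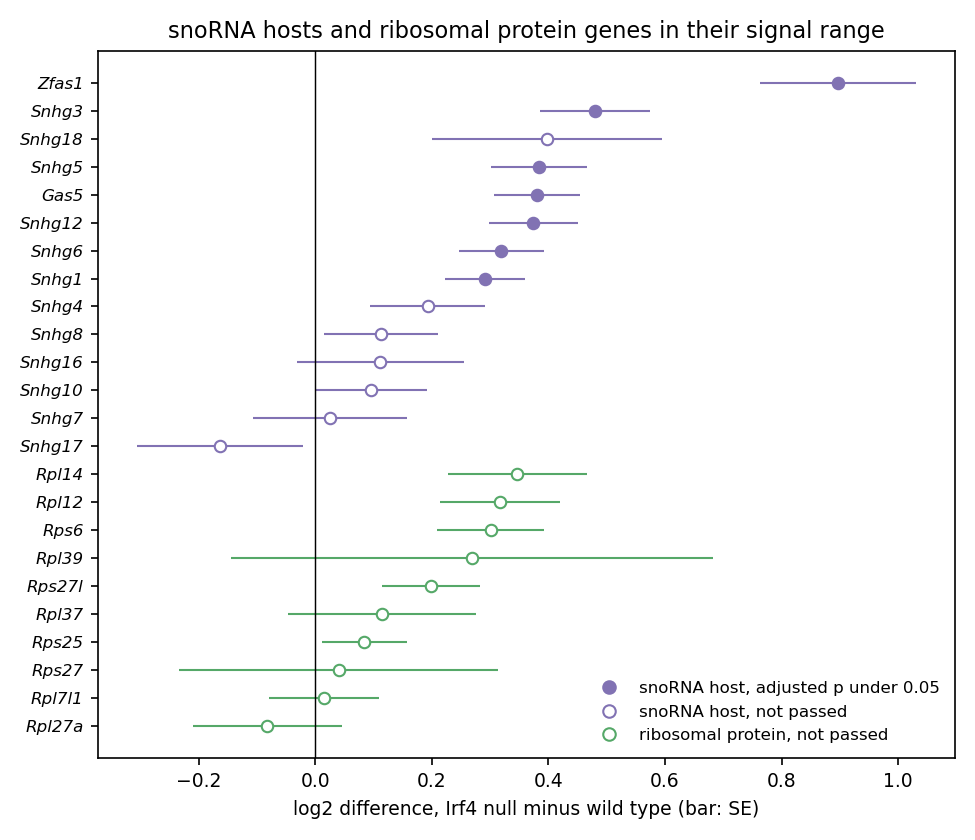
Log2 difference (Irf4 null minus wild type, bars are standard errors) of the 14 tested snoRNA hosts (purple) and of the 10 ribosomal protein genes within their signal range (green); filled points passed at an adjusted p of 0.05 and open points did not. The hosts that passed run from 0.29 (Snhg1) to 0.90 (Zfas1), and of the ribosomal protein genes, none of which passed, Rpl14, Rpl12 and Rps6 lie at 0.30 to 0.35.

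Dimmer probe sets of the same genes gave a further reading. Of 56 probe sets not chosen, 53 were tested and none passed by limma (4 at an unadjusted p under 0.05). The 16 within the host signal range had a median difference of 0.14, 14 of them positive, the 31 above it a median of 0.02, and the 6 below it a median of 0.10 over a range of -0.19 to 0.33. Of the 16, some of which share a gene, 13 had a larger difference than the brightest probe set of the same gene. The same count was not made for the 31. Rpl22 had a probe set with a mean signal of 1717 whose difference was 0.34 ± 0.08 (limma adjusted p = 0.0507), with 1473, 1376, 1670 and 1544 on the wild-type arrays against 1883, 2060, 1818 and 1910 on the null arrays, against -0.03 at its brightest. Rps3 had 0.37 at a mean signal of 890 and 0.10 at its brightest, and Rps9 had 0.21 at 878 and 0.06 at its brightest. Rps18 went the other way, with -0.08 at a mean signal of 158 and -0.19 at 133 against 0.07 at its brightest. Rps24 had -0.06 at 1195 and 0.33 ± 0.27 at 68.7, against -0.05 at its brightest. Chosen probe sets with the suffix x_at or s_at, which can bind sequences of other genes, numbered 17 of 48 among ribosomal protein genes and 1 of 16 among hosts.

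**Figure D4:**
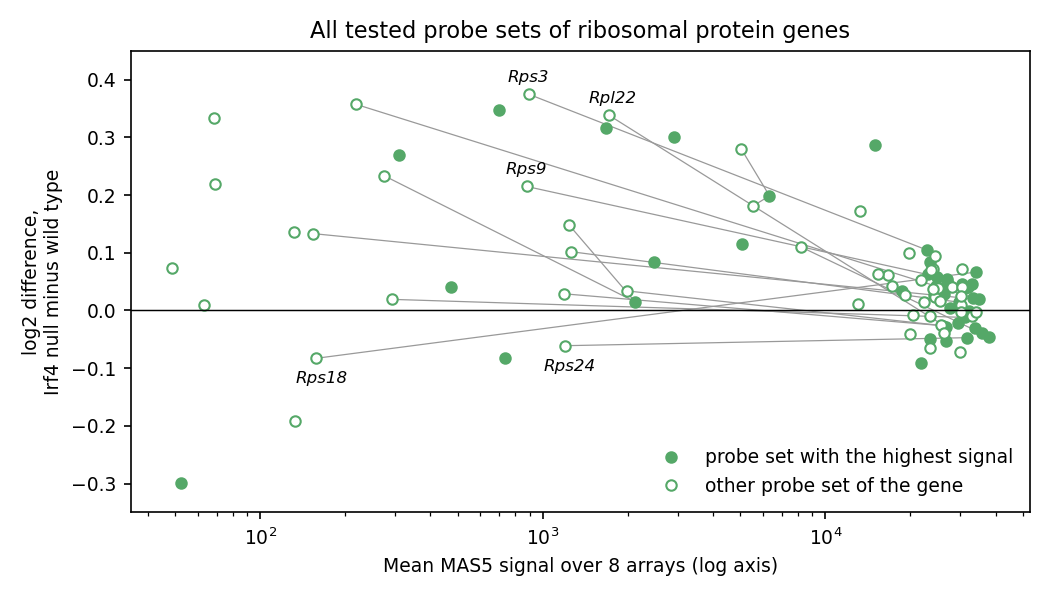
Log2 difference (Irf4 null minus wild type) of every tested probe set of the ribosomal protein genes against its mean MAS5 signal on a log axis. Filled points are the chosen probe sets and open points the others; lines join each of the 16 other probe sets in the host signal range to the chosen one of its gene. Within that range, the probe sets of Rpl22, Rps3 and Rps9 have larger differences than the chosen ones (0.34, 0.37 and 0.21), and those of Rps18 and Rps24 smaller ones (-0.08 and -0.06).

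Per-array medians gave the same order of the groups. Relative to the wild-type mean of each gene, the median over hosts was 0.034, -0.031, -0.092 and 0.107 on wild-type arrays 1 to 4 and 0.275, 0.211, 0.334 and 0.324 on null arrays 1 to 4. The null arrays all lay above the wild-type arrays, with means of 0.29 ± 0.06 and 0.0045 ± 0.09 (SD, n = 4 each). Over ribosomal protein genes the medians overlapped, from -0.071 to 0.150 in wild type and from -0.052 to 0.089 in Irf4 null. For the 10 ribosomal protein genes in the host range they ran from -0.093 to 0.074 in wild type and from 0.138 to 0.346 in Irf4 null.

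**Figure D5:**
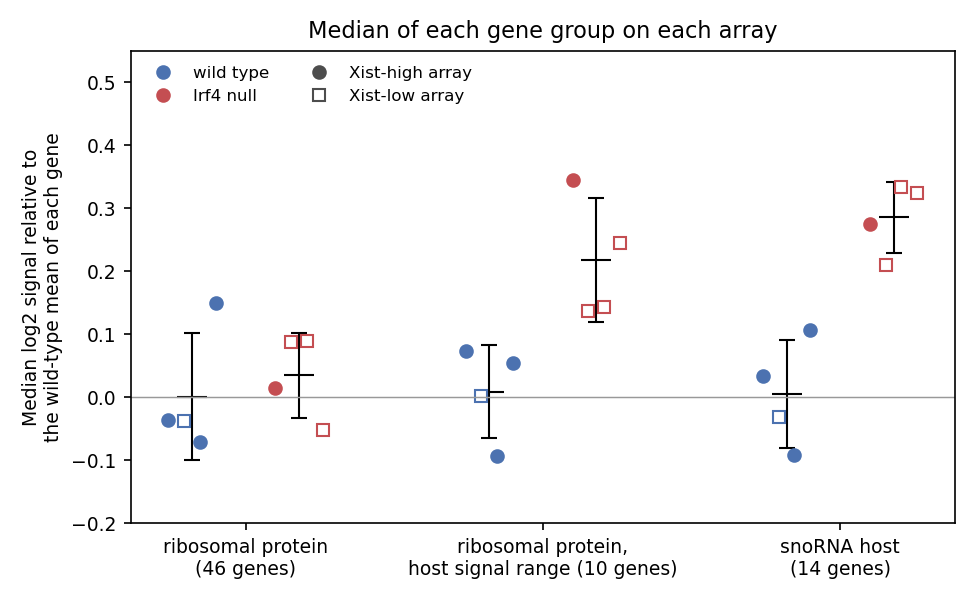
Median log2 signal of each gene group on each array, relative to the wild-type mean of each gene, for 4 wild-type (blue) and 4 Irf4 null (red) arrays with the mean and SD of each genotype. Filled circles are Xist-high and open squares Xist-low arrays. The host medians do not overlap between genotypes (-0.092 to 0.107 against 0.211 to 0.334). Medians over all tested ribosomal protein genes do overlap. Those of the 10 ribosomal protein genes in the host signal range do not (-0.093 to 0.074 against 0.138 to 0.346).

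With a term for Xist-high arrays, 3 of the 7 hosts still passed, namely Zfas1 (0.84, limma adjusted p = 0.0142), Gas5 (0.41, 0.0326) and Snhg12 (0.43, 0.0246), where 3.08% of all genes were called and 1.98% were called higher. The host median was 0.305 with the term, 0.265 within Xist-high arrays and 0.346 within Xist-low arrays, and the protein median 0.038, 0.000 and 0.072. Each of the within-class fits rests on a single array of 1 genotype, which was taken to vary like the others. With the mean of the other-cell markers as a covariate, Zfas1, Gas5 and Snhg12 passed, as did Rpl12 (0.46, limma adjusted p = 0.0357), the 1 setting in which a ribosomal protein gene passed. That marker mean was 8.16, 9.65, 8.28 and 8.21 on wild-type arrays 1 to 4 and 8.54, 9.78, 9.995 and 9.11 on null arrays 1 to 4 (log2). It ran from 8.16 to 8.54 on Xist-high arrays and from 9.11 to 9.995 on Xist-low arrays. The marker covariate and the Xist-high term thus split the arrays alike. They are not separate checks. A difference that goes with the markers cannot be told apart here from one that goes with the split in Xist and Y-linked RNA. Leaving out single arrays changed the count of called hosts: it was 1 without wild-type array 1, 7 without wild-type array 2, 2 without 3 and 4 without 4. It was 2, 2, 3 and 2 without null arrays 1, 2, 3 and 4. Zfas1 passed in each of these 8 fits.

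Genes that work with these families were read in lists chosen for this comparison. The counts of each list are to be set beside those of all 11796 tested genes. Of these, limma called 2.67% higher and 1.7% lower, and 20.4% had an unadjusted p under 0.05. Their median was 0.02, and 6437 were positive. Among 19 tested translation factors and other genes whose mRNAs carry the TOP motif, 1 was higher and none lower, with a median of 0.065 and 17 positive. Without wild-type array 3 the median was 0.037 and without null array 3 it was 0.040. The gene that passed was Pabpc4, a poly(A)-binding protein, with signals of 2977, 3378, 2894 and 3455 on the wild-type arrays against 3937, 3862, 4251 and 3860 on the null arrays (0.33 ± 0.08, limma adjusted p = 0.0497). The next was the elongation factor subunit Eef1d at 0.26 (limma adjusted p = 0.164). Among 17 other snoRNA hosts, most of them protein-coding, none passed (4 at an unadjusted p under 0.05), with a median of 0.064. That median was 0.11 without wild-type array 2, without wild-type array 4 or without null array 3, and 0.098 without null array 4. Dancr, a non-coding host, was at 0.30 (limma adjusted p = 0.158) and the nucleolar protein gene Ncl at 0.17 (0.175).

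The proteins that bind snoRNAs were all on the positive side without passing. Of 9 tested 0 were called by limma (3 at an unadjusted p under 0.05), with a median of 0.21 and 9 positive. The median depended on the arrays and the terms used: it was 0.084 without wild-type array 3, 0.13 without null array 3, 0.10 with the Xist-high term and 0.084 with the other-cell markers as a covariate. Rrp9, the U3 particle protein, went from 0.32 to -0.11 with the Xist-high term (limma adjusted p = 0.925 with it). Nhp2, a subunit of box H/ACA particles, was at 0.27 (limma adjusted p = 0.122) and the box C/D methyltransferase Fbl at 0.23 (0.135). Among 9 factors of nonsense-mediated decay none passed (1 at an unadjusted p under 0.05), with a median of -0.07. The sign of that median was not stable, at 0.015 with the Xist-high term, 0.056 within Xist-low arrays and 0.049 with the marker covariate. It was -0.027, -0.031 and -0.039 without wild-type arrays 1, 2 and 3 and -0.039 without null array 2. The lowest adjusted p belonged to the endonuclease gene Smg6 at -0.33 (0.215) and to Upf2 at -0.13 (0.46).

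Regulators of mTORC1 and of TOP mRNAs gave 0 calls of 15 by limma (2 at an unadjusted p under 0.05), with a median of -0.08, which was -0.047 without null array 2, -0.022 within Xist-high arrays, -0.032 with each gene's probe sets averaged and -0.12 with quantile normalization. Eif4ebp1, the translation repressor 4E-BP1, was at -0.39 (limma adjusted p = 0.134) and Myc at 0.52 (0.173). With the Xist-high term they were at -0.52 (limma adjusted p = 0.0649) and 0.35 (0.462). With the other-cell markers as a covariate Eif4ebp1 passed, at -0.57 (limma adjusted p = 0.0301), and Myc was at 0.29 (0.539). The mitochondrial ribosomal proteins, which serve the separate ribosome of mitochondria, had 3 higher of 76 and none lower, beside 2.67% higher over all genes, with a median of 0.12 and 66 positive, beside 6437 of 11796 over all genes. The median was 0.075 within Xist-low arrays. Mrpl52 was at 0.54 (limma adjusted p = 0.0161), Mrpl17 at 0.42 (0.0287) and Mrps15 at 0.30 (0.0368). With the Xist-high term none of the 4 genes called in these lists passed, at differences of 0.29 for Pabpc4, 0.46 for Mrpl52, 0.41 for Mrpl17 and 0.31 for Mrps15 (limma adjusted p = 0.154, 0.0561, 0.0773 and 0.0869). No list gene passed without wild-type array 1 or without wild-type array 4, whereas 9 list genes passed without wild-type array 2.

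Some ribosomal protein genes are snoRNA hosts themselves. RefSeq places at least 1 snoRNA gene inside 15 of the 48, of which 14 were tested, with a median difference of 0.041 and 0 called by limma (1 at an unadjusted p under 0.05). The 32 tested genes without one had a median of 0.033 and 0 called (4 at an unadjusted p under 0.05). Ribosomal protein genes are only partly covered here: of 88 in RefSeq, 31 have only probe sets annotated to several genes, among them Rpl3, Rpl5, Rpl10, Rpl36a, Rpl36al and Rplp1, and 9 have no named probe set.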

How the data were processed

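The deposited values are linear intensities from MAS5, according to the submitters' processing notes, which name no version. The deposited intensities were used with their scaling. Names came from GEO's platform annotation and were updated to RefSeq symbols (GRCm38.p6). After removal of control probe sets, log2(signal + 16) was taken, which understates the differences of dim genes, and the lowest 40% by mean were dropped (signal up to 42.9). The fit was limma 3.58.1 (R 4.3.3; lmFit, eBayes with a variance trend) over 27022 probe sets and 8 arrays, with Benjamini-Hochberg adjustment and a threshold of 0.05; figures used matplotlib 3.10.9. The fit was tested on simulated data. Without detection calls, dim signals may be background. Precision is limited by the number of arrays.

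The members, lists and rules were chosen with earlier results of these data known. Named were all hosts, called protein genes, the highest and lowest of each subunit and of the stalk, paralogue pairs, X-linked members, the 3 brightest and 3 dimmest, Rps19bp1 and 2 genes of each list. Rpl12, Rpl35, Rps3, Rps9, Rps18, Rrp9 and Mrps15 were named after their values were seen. Alternatives were the pseudocount, the filter, scaling, variance model, an Xist-high term, other-cell markers, replicate number, single arrays left out and the mean of a gene's probe sets.

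The labels do not say that replicate numbers pair the samples, and the main fit used no pairing. Deviations of same-numbered arrays correlated at 0.237, 0.277, -0.03 and -0.081. Those of differently numbered arrays of the 2 genotypes correlated at -0.388 to 0.207. So few values do not settle whether the samples were paired.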

Additional observations from a re-analysis of the deposited data

Results flagged for a closer look

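Dixon's test for a single far value was applied to 80 groups of 4 arrays, and 9 had an array set apart from the others; chance alone sets apart about 1 in 20 such groups. For Zfas1 the highest wild-type array, array 2, was at 4911 with the others at 3626 to 3836, and the lowest null array, also array 2, was at 5706 with the others at 8122 to 8262. For Snhg5 the highest null array was at 1881, with the others at 1716 to 1738. Among ribosomal protein genes, Rps6 had a lowest wild-type array of 2277 (others 2684 to 2737), Rpl8 a lowest null array of 18225 (others 21691 to 22313), Rpl7 a highest wild-type array of 26932 (others 23302 to 23803), Rps20 one of 38356 (others 33050 to 33701) and the dim Rpl39l one of 109.6 (others 42.1 to 47.1). The protein median was highest on wild-type array 4, at 0.150, with the other wild-type arrays at -0.071 to -0.036.

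The difference between genotypes was compared between Xist-high and Xist-low arrays with an interaction term for 33 named members, and 0 passed by limma, with a smallest adjusted p of 0.679. This comparison has 1 array in 2 of its 4 cells.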

How the results depend on the processing

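The host median stayed positive in all 22 alternatives, between 0.242 and 0.346, and the protein median lay between 0.000 and 0.084. Host minus protein median, 0.269 as reported, ranged from 0.217 to 0.313 with 1 array left out, and was 0.148 when only protein genes in the signal range of the hosts were used, an alternative chosen after seeing the data. No result changed sign past the threshold.

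The 7 members called higher became 2 with arrays centred on their median, 2 without a variance trend, 3 with the Xist-high term, 1 within Xist-high arrays, 0 within Xist-low arrays and 4 with other-cell markers as a covariate (3 of the named members). With 1 array left out the count was 1 to 7, also for the named members called. Zfas1 passed in 21 of the 22, missing within Xist-low arrays (0.56, limma adjusted p = 0.393), Gas5 and Snhg3 in 14, Snhg12 in 13, Snhg5 in 9, Snhg6 in 8 and Snhg1 in 6. With the replicate number as a block 6 members passed, Snhg1 being lost, and the block changed no other call among the named members.

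In the pathway lists, 4 members were called over the 6 lists. The count was 1 with arrays centred on their median, 0 without a variance trend and 0 with the Xist-high term. It was 1 with other-cell markers as a covariate and 0 to 9 with 1 array left out. The 1 call with the marker covariate was Eif4ebp1, which was lower and not among the 4. All probe sets called higher, 543 as reported, became 355 without a variance trend, 193 within the Xist-high and 62 within the Xist-low arrays, and 283 to 1297 with 1 array left out (1297 without wild-type array 2). All probe sets called lower, 407, became 200, 129 and 55 under those, 256 with the Xist-high term, 248 with the marker covariate and 183 to 875 with 1 array left out. Of the list medians, that of nonsense-mediated decay factors was positive in 3 of the 22 alternatives, that of snoRNP proteins was as low as 0.0835, that of other snoRNA hosts ran from 0.033 to 0.131 and that of other TOP translation genes from 0.034 to 0.090. The causes were not tested. Dim probe sets limit what can be read of Snhg11, Snhg14, Rps16 and Rpl3l.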
